A study of Mus musculus with 33 samples.

Results

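Gene expression after 10 h with RepSox was compared with gene expression in untreated cells of the same mouse line, OKMS6. The sample titles chose the arrays: 3 carry the line's name with RepSox at 10 h and 3 carry the line's name at 10 h alone, which makes 6 of the 33 arrays in the series. All genes measured above background entered, 9267 of the 16593 genes named on the array. RepSox is a small molecule inhibitor of Tgfbr1, the kinase of the TGF-beta receptor pair. The OKMS6 line came from mouse embryonic fibroblasts (MEFs) that had been transduced with viruses and stopped short of full reprogramming, and the labels name viral Sox2 for treated and untreated cells alike. It is a single line, so both groups share whatever its transgenes and clonal history brought. The labels give RepSox for 10 hours as the only difference between the groups and no vehicle for the untreated cells. Feeders and serum are not given culture by culture. Nothing in the labels says whether replicates came from separate cultures, so the p-values rest on a spread between arrays that may be technical.

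TGF-beta, activin and Nodal ligands bring a type II and a type I receptor kinase together at the cell surface. The type I kinase (Tgfbr1, also called Alk5, for TGF-beta) phosphorylates Smad2 and Smad3, which enter the nucleus with Smad4 and act on target genes. BMP ligands use other type I receptors and Smad1 and Smad5, and the Id genes are their best known targets. In embryonic stem cells BMP signals and the Id proteins help to hold back differentiation, while in fibroblasts TGF-beta drives matrix production and restrains reprogramming.

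The 6 arrays had mean scanner signals of 246 to 305 and detected 43.8% to 47.1% of their probes. RepSox replicate 3 stood apart from its group. Its correlation with RepSox replicates 1 and 2 over all genes tested was 0.987 and 0.989, whereas RepSox replicates 1 and 2 correlated at 0.9961 and the untreated arrays among themselves at 0.9959 to 0.9968. The total count of called genes is therefore also given without that array, as are the counts of some gene lists. Among pluripotency markers, Pou5f1 (Oct4), which every pluripotent cell needs, was detected on all 6 arrays, but the core pluripotency factor Nanog was detected on none, and Esrrb, Tbx3, Dppa3 and Tcl1 did not pass the filter on dim probes. Of 15 fibroblast genes 3 passed that filter, and the collagen genes Col1a1, Col1a2 and Col3a1 did not. Whether the Pou5f1 signal came from the cells' own gene or from a virus was not tested.

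After 10 h with RepSox, 1387 genes differed from untreated cells at an adjusted p under 0.05, or 15% of the genes tested. Of these, 800 were higher (8.63% of the genes tested) and 587 were lower (6.33%). Most differences were small. The median size of a called change was 0.52 on the log2 scale, and 94 called genes differed at least 2-fold, 63 upward and 31 downward. In 1373 of the 1387 called genes the RepSox arrays and the untreated arrays did not overlap, against 3113 of all 9267 genes tested (33.6%). A call itself favours groups that do not overlap, so the first count is a description. The median change of all genes was 0.0033. Without RepSox replicate 3 the count was 1138, and 967 of the 1387 genes remained called, none of them with the other sign. Of the 406 called genes with further measured probes, 56 had a probe of the other sign. Because whole cultures were measured, fewer cells of a type and less RNA per cell cannot be told apart.

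**Figure D1:**
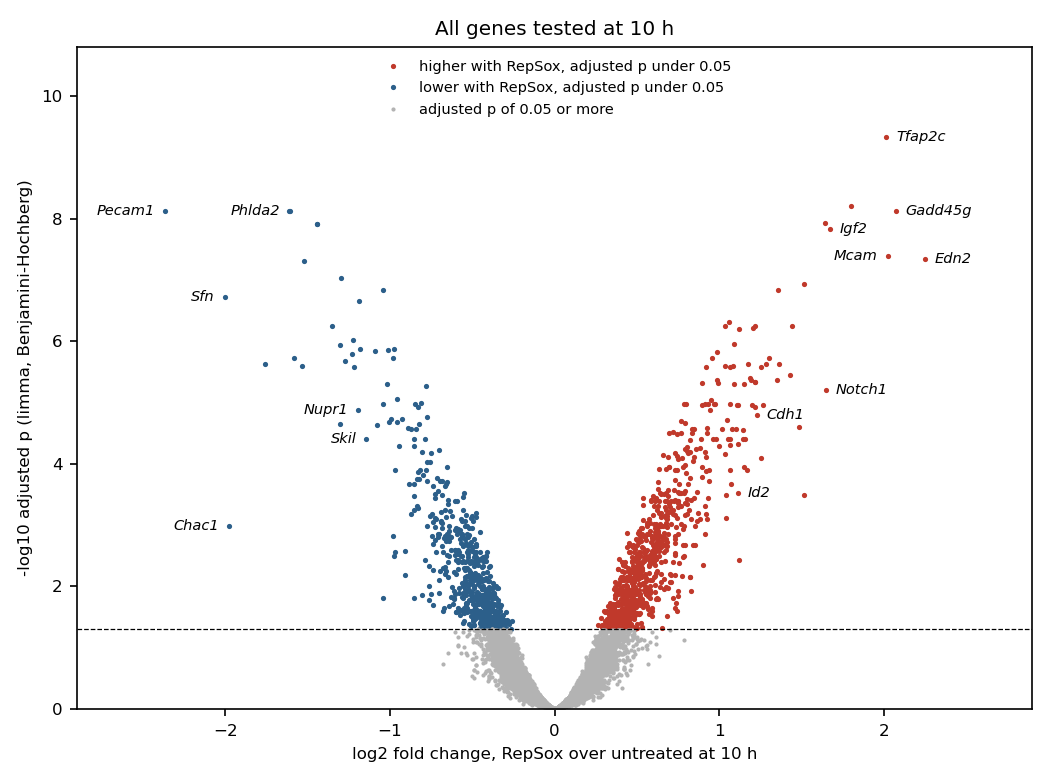
Each point is 1 of the 9267 genes tested, with its log2 fold change of RepSox over untreated cells at 10 h on the horizontal axis and the negative log10 of its adjusted p on the vertical axis. The 800 red genes are higher and the 587 blue genes lower with RepSox above the dashed line at an adjusted p of 0.05, and Tfap2c lies highest.

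The largest fitted rise was that of Edn2, which encodes the vasoactive peptide endothelin-2. It read 7.03, 6.57 and 6.72 log2 units on the RepSox arrays, against 4.55, 4.52 and 4.495 on the untreated arrays. Every RepSox array detected it and none of the untreated arrays did, so the rise is a lower bound of at least 3.74-fold (adjusted p = 4.5e-08). That bound lies below the 4.21-fold rise of Gadd45g, so the order of the largest rises is not settled. Gadd45g, a gene of cell cycle arrest and the DNA damage response, read 9.69, 9.50 and 9.87 with RepSox, against 7.72, 7.53 and 7.60 without. Its groups were far apart, with a log2 fold change of 2.07 ± 0.14 (SE, n = 3 each, adjusted p = 7.5e-09), and its other probe gave 1.31. Tfap2c, a transcription factor of trophectoderm and early germ cells, had the smallest adjusted p of all genes. It read 9.51, 9.27 and 9.38 with RepSox, against 7.45, 7.23 and 7.43 without, a change of 2.02 ± 0.11 (adjusted p = 4.6e-10), with other probes at 1.34 to 1.95. Mcam (CD146), a cell adhesion molecule, rose by a similar 2.02 ± 0.16, with 8.13, 8.36 and 8.21 with RepSox against 6.26, 5.92 and 6.45 without, and its other probes gave 1.11 to 1.12.

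The other large rises were in genes of varied function. Igf2, an imprinted growth factor, read 7.29, 7.45 and 7.83 with RepSox, against 5.99, 5.78 and 5.79 without, and rose by 1.67 ± 0.12. The receptor gene Notch1 read 6.38, 6.403 and 7.34 with RepSox, against 4.95, 5.24 and 4.98 without, so that replicate 3 lay well above the other RepSox arrays. Its change of 1.65 ± 0.19 was 1.33 without that array (adjusted p = 6.4e-06). Bcl9l, a coactivator of beta-catenin, read 7.36, 6.77 and 7.88 with RepSox, widely spaced, against 6.02, 5.56 and 5.87 without. Its change was 1.52 ± 0.25, and 1.24 without RepSox replicate 3 (adjusted p = 0.0027). The remaining 5 of the 12 largest rises were Gsdmc2 of the gasdermin family (1.80 ± 0.11), the neuroendocrine transcription factor Insm1 (1.64 ± 0.12), the kininogen gene Kng1 (1.51 ± 0.13), the retinol-oxidizing alcohol dehydrogenase Adh7 (1.48 ± 0.19) and the matrix protein gene Spon2. Kng1 was detected on 1 of the 3 untreated arrays, and its other probe gave a log2 change of -0.01. Spon2 was not detected in untreated cells and rose at least 1.96-fold.

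Pecam1 had the largest fall. This adhesion molecule (CD31) marks endothelial cells and is also found on mouse embryonic stem cells. It read 5.80, 5.78 and 5.30 with RepSox, against 7.98, 7.998 and 8.01 without, a log2 fold change of -2.37 ± 0.16 (SE, n = 3 each, adjusted p = 7.5e-09), and its other probe gave -1.47. Sfn, the epithelial 14-3-3 sigma protein, read 5.22, 4.99 and 4.90 with RepSox, against 7.07, 7.09 and 6.96 without (-2.00 ± 0.17, adjusted p = 1.9e-07). Chac1, which degrades glutathione and is induced by the stress factor ATF4, read 5.53, 5.37 and 5.71 with RepSox, against 7.55, 7.42 and 7.57 without. Its change of -1.98 had a wide SE of 0.37, which pools the spread within all 6 OKMS6 groups (adjusted p = 0.0010). Itga7, a laminin-binding integrin subunit, fell by 1.76 on the log2 scale and was still detected on 2 of the 3 RepSox arrays.

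The other 8 of the 12 largest falls lay between -1.61 and -1.36. They were the lysophospholipid transporter Mfsd2a, the imprinted placental growth regulator Phlda2, the basal keratin Krt14, the adaptor Lat2, the carboxypeptidase subunit Cpn1, the lysosomal sialidase Neu1, the endoplasmic reticulum prolyl isomerase Fkbp11 and the plasma protein Proz. Neu1 was among the tightest, with 8.77, 8.77 and 8.88 with RepSox against 10.25, 10.26 and 10.24 without (-1.45 ± 0.10, adjusted p = 1.2e-08). Krt14 read 7.38, 7.29 and 6.72 with RepSox, against 8.65, 8.73 and 8.78 without. In both genes every RepSox array was below every untreated array, as the rule for choosing the 24 genes required.

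**Figure D2:**
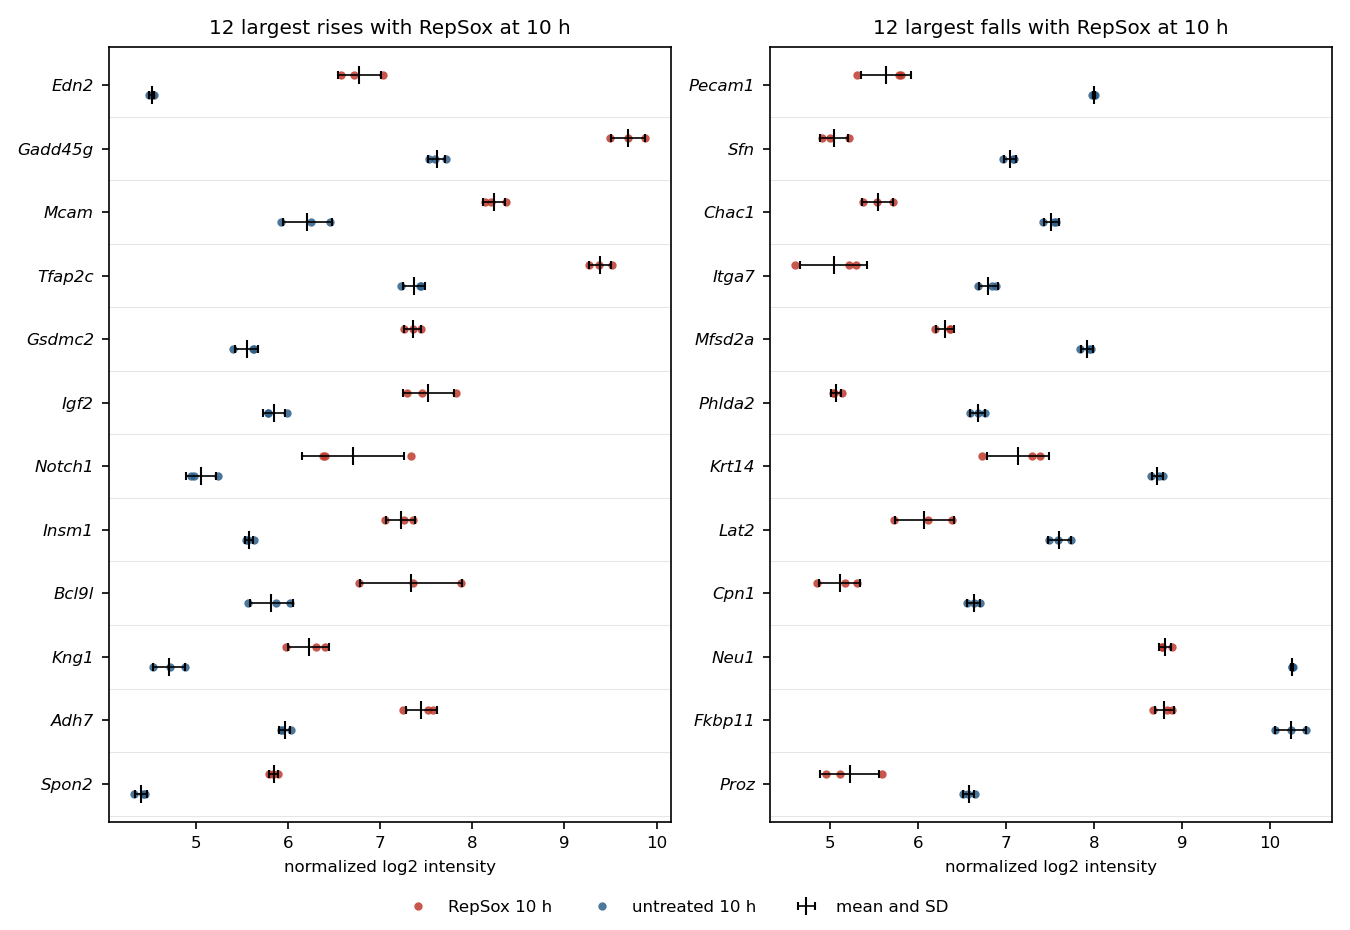
Normalized log2 intensity of the 12 genes with the largest rise (left) and the 12 with the largest fall (right), with a point for each array in the 3 RepSox arrays (red, upper row of each gene) and the 3 untreated arrays (blue, lower row) and bars for the mean and SD. The RepSox values of Notch1 and Bcl9l spread the most among the rises, and for Notch1 replicate 3 lies well above the other two.

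In the pathway that RepSox inhibits, 3 receptor genes and a latency protein gene rose and 4 known targets fell. Of 10 measured receptor, co-receptor and latency genes, 4 rose and 1 fell, against 8.63% and 6.33% of all genes, and their median change was 0.22 against 0.0033 for all genes. Tgfbr2, the type II receptor that binds TGF-beta, read 10.19, 10.24 and 10.54 with RepSox, against 9.67, 9.60 and 9.68 without (0.67 ± 0.10, adjusted p = 0.00012). The co-receptor Tgfbr3 (betaglycan) rose by 0.68 ± 0.12 and the latent TGF-beta binding protein Ltbp1 by 0.91 ± 0.18. For Ltbp1 the highest RepSox value, 9.58, was replicate 3, the change without it was 0.67 (adjusted p = 0.0083), and its other probes gave 0.00 to 0.51. Tgfbr1, the kinase that RepSox binds, read 8.17, 8.45 and 8.58 with RepSox, against 8.12, 7.84 and 7.87 without. Its groups nearly touched and its rise of 0.46 ± 0.13 (adjusted p = 0.017) lost its call without untreated replicate 2 (adjusted p = 0.0807) or 3 (0.0753) or without RepSox replicate 2 (0.0582) or 3 (0.0836). The other probe of Tgfbr1 gave 0.17.

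None of the 6 measured ligand genes of the TGF-beta, activin and Nodal group passed the test, and their changes ran between -0.17 for Inhba and 0.42 for Tgfb3. Of 11 Smads and Smad regulators, 1 rose and 1 fell, against 8.63% and 6.33% of all genes, with a median of -0.01. Smad3, a signal-carrying Smad, read 7.01, 7.08 and 7.55 with RepSox, against 6.41, 6.41 and 6.39 without (0.81 ± 0.13, adjusted p = 0.00022), and 0.64 without RepSox replicate 3. Smad2 (-0.10) and Smad4 (0.02) did not pass. Skil, which encodes the corepressor SnoN that binds Smads and is itself a direct TGF-beta target, read 7.80, 8.17 and 8.18 with RepSox, against 9.10, 9.24 and 9.24 without. It fell by 1.14 on the log2 scale (SE 0.16, adjusted p = 3.9e-05), and all 3 RepSox arrays were about a full log2 unit below the untreated arrays.

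Of 15 measured TGF-beta target genes, 4 fell, 1 rose and 10 did not pass, against 6.33% lower and 8.63% higher over all genes, with a median of -0.21. Beside Skil, the lipase inhibitor Angptl4 read 9.28, 9.16 and 8.93 with RepSox, against 9.89, 9.74 and 9.82 without (-0.69 ± 0.13). The metalloprotease inhibitor Timp1 fell by 0.45 and the matricellular gene Ctgf (now Ccn2) by 0.50. Ctgf lost its call without untreated replicate 2 (0.1461) or 3 (0.09395) or RepSox replicate 2 (0.06113) or 3 (0.1746), and its change was 0.44 at 24 h. The cell cycle inhibitor Cdkn2b (p15), which TGF-beta induces in epithelial cells, went the other way and rose by 0.55 ± 0.14 (adjusted p = 0.012), a call that was lost without untreated replicate 1 (0.0665). Pmepa1, Snai1 and Edn1 gave 0.06, 0.06 and -0.03. Smad7 was not analysed here. Among Nodal targets only Tdgf1 (Cripto), the Nodal co-receptor, was measured. It read 5.73, 5.73 and 6.19 with RepSox, against 6.56, 6.69 and 6.62 without (-0.74 ± 0.21, adjusted p = 0.020). Its call was lost without untreated replicate 2 (0.0703) or 3 (0.0577) or RepSox replicate 1 (0.0725) or 2 (0.0750), and its other probe gave -0.23.

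Of 7 measured BMP target genes 4 rose and 0 fell, against 8.63% and 6.33% of all genes, and the median was 0.48. Id2, an inhibitor of differentiation factors, read 6.74, 6.75 and 7.11 with RepSox, against 5.77, 5.75 and 5.74 without, and rose by 1.11 ± 0.18 (adjusted p = 0.00030). Its other probe gave 0.08. Gata2 rose by 0.83 ± 0.13. Id1 read 11.17, 10.84 and 10.42 with RepSox, against 10.28, 10.36 and 10.24 without (0.52 ± 0.14, adjusted p = 0.015), and Id3 rose by 0.48 ± 0.14 (adjusted p = 0.027). RepSox replicate 3 gave the lowest Id1 value of its group, close to the untreated arrays. Id1 lost its call without untreated replicate 3 (0.0582) or RepSox replicate 1 (0.0960), and Id3 without untreated replicate 2 (0.0789) or 3 (0.167) or RepSox replicate 1 (0.125) or 3 (0.0566). The list had 2 members called without untreated replicate 3 and 2 without RepSox replicate 1. Of 7 BMP ligands, receptors and antagonists, 2 fell: the ligand Bmp8b (-0.69 ± 0.13) and the secreted BMP antagonist Grem1, which read 8.64, 8.45 and 8.44 with RepSox against 9.11, 9.005 and 9.15 without (-0.58 ± 0.15, adjusted p = 0.011).

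**Figure D3:**
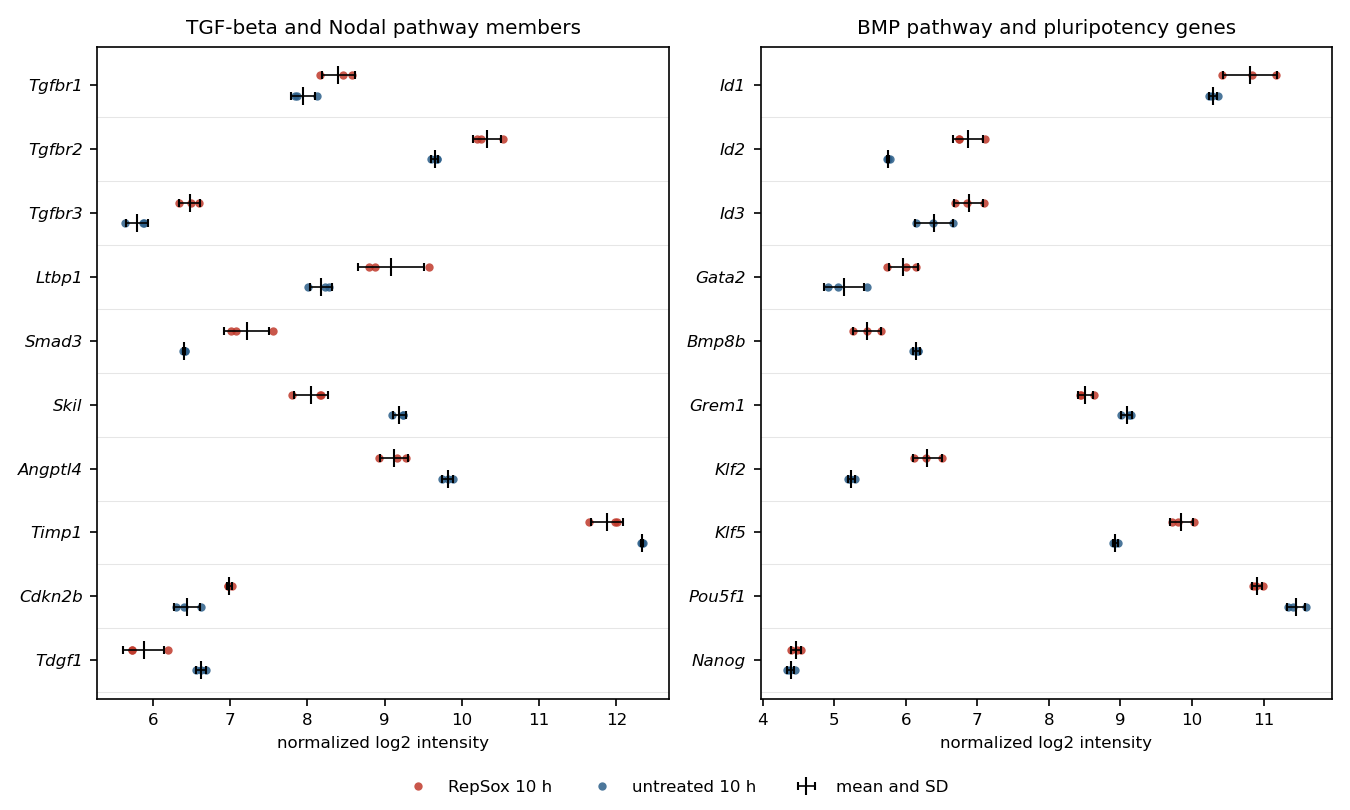
Normalized log2 intensity of 10 TGF-beta and Nodal pathway members (left) and 10 BMP pathway and pluripotency genes (right), with points for the 3 RepSox arrays (red, upper row of each gene) and the 3 untreated arrays (blue, lower row) and bars for the mean and SD. Skil and Id2 show wide gaps between the groups, and Nanog stayed under detection in both groups.

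Of 17 measured pluripotency genes 3 rose and 2 fell, with a median of 0.04. Over all genes 8.63% rose and 6.33% fell, so these counts lie within about 2 genes of the background. Klf2, a factor of the naive pluripotent state, read 6.51, 6.11 and 6.28 with RepSox, against 5.23, 5.19 and 5.29 without (1.06 ± 0.12, adjusted p = 2.6e-06). Klf5, its relative with an overlapping role, read 10.03, 9.72 and 9.81 with RepSox, against 8.93, 8.97 and 8.89 without (0.92 ± 0.14). Eras, a Ras-like gene of embryonic stem cells, was detected in RepSox cells alone and was at least 1.18-fold higher there. Pou5f1 read 10.99, 10.85 and 10.90 with RepSox, against 11.35, 11.59 and 11.41 without, a fall of 0.54 on the log2 scale (SE 0.15, adjusted p = 0.020). That call was lost without untreated replicate 2 (0.0972) or 3 (0.0511) or RepSox replicate 2 (0.0647) or 3 (0.0508).

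The reprogramming factors Klf4, Myc and Sox2 did not pass the test. Klf4 changed by -0.19 ± 0.18 (adjusted p = 0.58) and Sox2 by -0.12 ± 0.14 (0.63). Myc read 8.87, 8.64 and 8.97 with RepSox, against 8.91, 9.46 and 9.34 without (-0.41 ± 0.17, adjusted p = 0.11), and the groups overlapped. Sox2 was detected on 1 RepSox array and 2 untreated arrays. Whether these probes, or those of Pou5f1, read viral transcripts was not examined. Nanog gave a change of 0.08 ± 0.11 with no detected value at 10 h. On all 30 arrays of the platform normalized together, Klf2 averaged 6.23 ± 0.19 in RepSox cells and 5.24 ± 0.05 in untreated cells, against 9.42 ± 0.20 in R1 embryonic stem cells (SD, n = 3 each). On the same scale Eras averaged 5.12 ± 0.16, 4.53 ± 0.15 and 9.03 ± 0.05 in those groups, and Nanog 4.48 ± 0.08, 4.40 ± 0.06 and 11.53 ± 0.11. For each of these genes the RepSox mean at 10 h lay far nearer to the untreated mean than to R1 cells. Klf5, which also rose, averaged 9.72 ± 0.16, 8.79 ± 0.04 and 11.09 ± 0.30. Some other risers lay nearer to R1 cells. Tfap2c averaged 9.25 ± 0.12 in RepSox cells, 7.25 ± 0.12 in untreated cells and 9.73 ± 0.07 in R1 cells. In the same order Mcam averaged 8.09 ± 0.12, 6.15 ± 0.25 and 8.29 ± 0.02, and Gadd45g 9.55 ± 0.19, 7.49 ± 0.09 and 9.31 ± 0.10. In MEFs Mcam averaged 7.92 ± 0.05 and Gadd45g 11.46 ± 0.05. Among the 12 largest rises, Igf2 and Spon2 also rose toward R1 cells, and the rest moved away from them. Gsdmc2 averaged 7.23 ± 0.09, 5.54 ± 0.12 and 4.30 ± 0.01 in that order. Adh7 averaged 7.33 ± 0.17, 5.92 ± 0.06 and 4.30 ± 0.05. Edn2, Notch1, Insm1, Bcl9l and Kng1 also lay farther from R1 cells with RepSox than without it.

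Markers of other cell types were then examined, against 8.63% of all genes higher and 6.33% lower. Of 7 trophectoderm genes 2 rose, Tfap2c and Tfap2a (0.58 ± 0.14, and 0.38 without RepSox replicate 3, adjusted p = 0.0503). The list's summed linear intensity was 1762 to 2193 on the RepSox arrays and 1118 to 1177 on the untreated arrays, and Cdx2, Eomes and Elf5 did not pass the filter. That sum includes the 2 risers. The list's median change was 0.06, with 3 of the 7 genes below 0. Among 5 endothelial genes the receptor Tek rose (0.46 ± 0.10) and Pecam1 fell, with sums of 632 to 677 with RepSox and 747 to 762 without, and Cdh5 and Kdr below the filter. None of 3 fibroblast genes passed the test (sums of 305 to 381 with RepSox and 297 to 299 without). All 3 lay above 0 with a median of 0.31, and 1 was called higher without RepSox replicate 3. Of 7 mesoderm, endoderm and ectoderm genes 2 rose, Insm1 and Msc (sums of 389 to 415 with RepSox and 261 to 301 without). These sums include both risers, and the median change was 0.07 with 2 of the 7 below 0. No adipocyte gene was measured above background, and the 1 germ cell gene measured, Dnd1, gave -0.17. The part of such cells in the results was not tested.

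Of 9 epithelial genes 2 rose and 2 fell, against 8.63% and 6.33% of all genes. Cdh1 (E-cadherin), the adhesion molecule that pluripotent cells also need, read 7.10, 6.84 and 7.33 with RepSox, against 5.62, 5.89 and 6.08 without (1.23 ± 0.15, adjusted p = 1.6e-05). The splicing regulator Esrp1 rose by 0.62 ± 0.17, a call lost without untreated replicate 2 (0.0740) or 3 (0.0521) or RepSox replicate 3 (0.0977), while Sfn and Krt14 fell as given above. Of 8 mesenchymal genes only Vim (vimentin) rose, by 0.48 ± 0.14 with overlapping groups. Its call was lost without untreated replicate 1 (0.0733) or 3 (0.105) or RepSox replicate 1 (0.147) or 2 (0.0961). Zeb1, Zeb2, Twist1 and Snai1 lay between -0.12 and 0.31 and did not pass.

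TGF-beta commonly induces contractile genes of the smooth muscle type in fibroblasts. Of 9 measured, 3 rose and 1 fell, against 8.63% and 6.33% of all genes, with a median of 0.38. Acta2 (smooth muscle actin) read 11.37, 11.29 and 10.99 with RepSox, against 10.58, 10.62 and 10.53 without (0.64 ± 0.13, adjusted p = 0.0015). Actg2 rose by 0.53 ± 0.09 and the tropomyosin gene Tpm1 by 0.52 ± 0.10. The fall of the myosin kinase Mylk (-0.46 ± 0.15, adjusted p = 0.048) was lost on leaving out any of the 6 arrays (0.0715 to 0.143). Of 16 matrix genes 3 fell, the membrane metalloprotease Mmp14 (-0.63 ± 0.13), Timp3 (-0.49 ± 0.10) and Timp1, and Mmp2 rose by 0.41 ± 0.12. The Mmp2 call was lost without untreated replicate 1 (0.0971) or 3 (0.107) or RepSox replicate 3 (0.146). The list's median was -0.03.

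The ATF4 program, which cells use to make and import amino acids and to answer stress in the endoplasmic reticulum, was examined next. Of 27 measured genes 8 fell, 1 rose and 22 lay below 0, with a median of -0.23, against 6.33% of all genes lower and a median of 0.0033. The list had 5 members called lower without untreated replicate 2. Atf4 itself read 6.43, 6.23 and 6.56 with RepSox, against 7.05, 7.45 and 7.14 without (-0.81 ± 0.22, adjusted p = 0.014), and lost its call without untreated replicate 2 (0.0774) or RepSox replicate 2 (0.0590). The stress-induced chromatin protein gene Nupr1 read 7.94, 8.04 and 7.65 with RepSox, against 9.17, 8.94 and 9.12 without (-1.20 ± 0.15, adjusted p = 1.3e-05). Herpud1, an endoplasmic reticulum degradation factor, read 9.21, 9.29 and 9.33 with RepSox, against 10.03, 9.96 and 9.82 without (-0.66 ± 0.10). The mitochondrial folate enzyme gene Mthfd2 fell by 0.97 and the pseudokinase gene Trib3 by 0.55, a call lost without untreated replicate 2 (0.07638) or RepSox replicate 3 (0.06545). The member that rose was Ddit4, an inhibitor of mTORC1 signalling, with 9.06, 8.86 and 8.84 with RepSox against 7.995, 7.48 and 7.95 without (1.11 ± 0.14, adjusted p = 1.1e-05). Ddit3 (CHOP) gave 0.11 ± 0.15 (adjusted p = 0.72).

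ATF4 and C/EBP proteins bind a composite element whose core is TGATGNAA. Of the 8 ATF4 list members that fell, 7 had a promoter in the RefSeq table (GRCm38.p6), and 3 of these held the core on either strand within the 250 bases before the start. Among 20 promoters of the other measured list members 3 held it, as did 3.45% of all 32851 promoters of that length and 2.11% of those of genes tested. It was in 2.20% of promoters of genes called higher and 2.77% of promoters of genes called lower. These counts describe the letters and are no test of binding. The sequences are shown because the 3 genes carry the same 8 letters, TTGCATCA, which is the core on the opposite strand, in capitals. It begins 193 bases before the start in Chac1 (chr2:119350992-119351241, plus strand), 112 in Herpud1 (chr8:94386179-94386428, plus strand) and 110 in Nupr1 (chr7:126625471-126625720, minus strand), each printed 5′ to 3′ in the direction of transcription.
Chac1: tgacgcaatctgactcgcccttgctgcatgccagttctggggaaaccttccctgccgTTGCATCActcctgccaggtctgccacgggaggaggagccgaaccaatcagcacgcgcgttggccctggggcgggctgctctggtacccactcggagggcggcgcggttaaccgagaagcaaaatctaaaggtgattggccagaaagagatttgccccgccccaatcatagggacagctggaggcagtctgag
Herpud1: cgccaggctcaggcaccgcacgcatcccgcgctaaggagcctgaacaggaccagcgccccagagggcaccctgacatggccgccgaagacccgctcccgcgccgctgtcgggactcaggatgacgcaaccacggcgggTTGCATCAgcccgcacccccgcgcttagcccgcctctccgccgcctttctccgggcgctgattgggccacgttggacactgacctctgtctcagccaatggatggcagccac
Nupr1: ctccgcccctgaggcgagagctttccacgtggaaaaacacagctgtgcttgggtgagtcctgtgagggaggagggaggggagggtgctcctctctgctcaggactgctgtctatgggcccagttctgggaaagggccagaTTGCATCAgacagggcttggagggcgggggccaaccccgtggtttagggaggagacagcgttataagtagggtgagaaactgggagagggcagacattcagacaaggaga

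Of 14 chaperones of the endoplasmic reticulum 1 fell (Creld2, -0.44 ± 0.10), and the median was -0.05. Among 10 heat shock genes 1 fell, the cochaperone Bag3, which read 8.56, 8.60 and 8.41 with RepSox against 9.17, 9.15 and 9.42 without (-0.72 ± 0.12). Of 20 measured Myc targets, many of them ribosome assembly genes, 5 fell, 0 rose and 18 lay below 0, against 6.33% of all genes lower, with a median of -0.25. Srm, the spermidine synthase gene, read 11.06, 10.75 and 10.88 with RepSox, against 11.75, 11.78 and 11.67 without (-0.84 ± 0.15, adjusted p = 0.00048), and its other probes gave -0.98 to -0.77. The folate enzyme Shmt1 fell by 0.69 (SE 0.16). Of this list 3 members were called without untreated replicate 1, 3 without untreated replicate 3 and 3 without RepSox replicate 1. In the Myc and Max family 2 of 8 rose, against 8.63% of all genes. They were Mycl (not detected in untreated cells, at least 1.12-fold higher) and Mxd4 (0.42 ± 0.13). The Mxd4 call was lost on leaving out any array but RepSox replicate 2 (0.0530 to 0.125).

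The p53 target and arrest list had 7 rises among 18 measured genes against 8.63% of all genes, with no member lower and a median of 0.29. Trp53inp1, which promotes arrest and autophagy, read 10.18, 10.49 and 10.59 with RepSox, against 9.22, 9.14 and 9.32 without (1.19 ± 0.13, adjusted p = 4.2e-06), and its other probe gave 1.20. Gadd45a read 6.88, 6.79 and 6.58 with RepSox, against 5.49, 5.94 and 5.88 without (0.98 ± 0.13). The apoptosis gene Bbc3 (Puma) rose by 0.75 ± 0.13, although its other probes gave -0.03 to 0.13. The best known p53 target, the cell cycle inhibitor Cdkn1a, did not pass, with 11.14, 11.18 and 11.20 with RepSox against 11.30, 11.10 and 11.26 without (-0.05 ± 0.10, adjusted p = 0.82). Of 10 cyclin-dependent kinase inhibitors and D cyclins 1 passed, Cdkn2b. Of 18 cell cycle genes 1 rose (E2f1, 0.50 ± 0.14) and 1 fell (Ccne2, -0.68 ± 0.20), and the median was -0.02. Both calls were lost without RepSox replicate 3 (0.0689 for E2f1 and 0.134 for Ccne2) and without untreated replicate 2 (0.130 and 0.129). E2f1 also lost its call without RepSox replicate 1 (0.0514), and Ccne2 without untreated replicate 3 (0.0934).

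Of 10 immediate early genes 4 fell and 0 rose, and of 16 ERK readouts 4 fell and 0 rose, against 6.33% and 8.63% of all genes, with Egr1 and Fosl1 on both lists. The medians were -0.11 and -0.07, and 8 of the 16 ERK readouts lay above 0. Egr1, a zinc finger factor that growth signals induce within minutes, read 4.74, 4.85 and 4.99 with RepSox, against 5.87, 5.68 and 6.01 without (-0.99 ± 0.13, adjusted p = 1.8e-05), and was detected on 1 of the 3 RepSox arrays. Fosl1, an AP-1 subunit, was undetected on the RepSox arrays and at least 1.61-fold lower. Hbegf was also undetected there and at least 1.16-fold lower, a call lost without untreated replicate 3 (0.115) or RepSox replicate 3 (0.0602). Phlda1 fell by 0.74 (SE 0.12) and Zfp36, which destabilizes cytokine mRNAs, by 0.47 (SE 0.10). Fos fell by 0.67 (SE 0.19, adjusted p = 0.023), a call lost without untreated replicate 2 (0.0696) or 3 (0.0738) or RepSox replicate 1 (0.0995) or 2 (0.0776). The ERK phosphatase genes Dusp6 (0.13) and Dusp4 (0.25) did not pass, and no FGF ligand or receptor of 5 measured did.

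**Figure D4:**
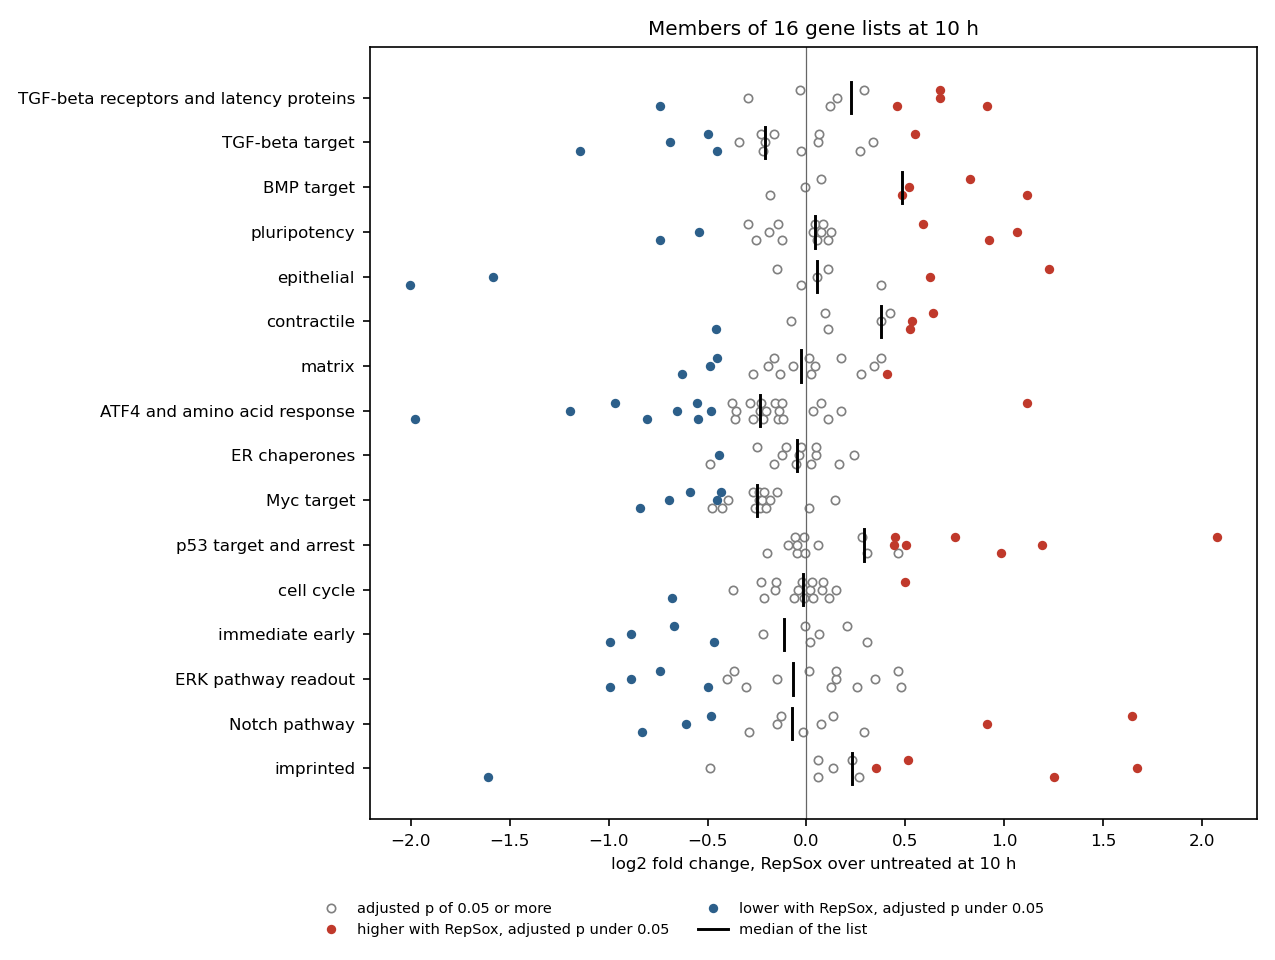
Log2 fold changes of RepSox over untreated cells at 10 h for the measured members of 16 gene lists, with a point for each gene, filled where the adjusted p is under 0.05, and a black bar for the median of the list. The ATF4 and Myc target lists have medians of -0.23 and -0.25, and the BMP target, contractile and p53 lists have medians of 0.48, 0.38 and 0.29.

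As background for the Notch, Wnt and cytokine lists, 8.63% of all genes rose and 6.33% fell. In the Notch list 2 of 12 rose and 3 fell. Beside Notch1, Hes6, an antagonist of Hes1, read 9.20, 9.11 and 8.78 with RepSox against 8.18, 8.10 and 8.07 without (0.91 ± 0.11), while the fringe glycosyltransferase Mfng (-0.83 ± 0.13) and the ligand Jag2 (-0.61 ± 0.16) fell. The other probe of Mfng gave -0.35. Hes1 also fell, a call lost on leaving out any array but RepSox replicate 1 (0.0634 to 0.157). Jag2 lost its call without untreated replicate 1 (0.0577) or 3 (0.0521), and 1 of the 3 falls was called in each of those fits. Of 8 Wnt pathway genes 2 rose. The secreted Wnt inhibitor Sfrp1 read 8.21, 8.24 and 8.34 with RepSox, against 7.22, 7.17 and 7.04 without (1.12 ± 0.11, adjusted p = 6.3e-07), and Wnt5a, not detected in untreated cells, was at least 1.05-fold higher. In the LIF, Stat3 and cytokine list 3 of 13 rose and 2 fell. Of the 13, 9 lay below 0, and the median was -0.09. Pim3 fell (-0.62 ± 0.17), a call lost without untreated replicate 3 (0.0792) or RepSox replicate 3 (0.121). The interleukin receptor Il7r rose by 0.92 ± 0.10 with its other probe at 0.18, the oncostatin M receptor Osmr by 0.79 ± 0.13, and the feedback inhibitor Socs3 by 0.62 ± 0.10, with 10.45, 10.44 and 10.43 with RepSox against 9.81, 9.72 and 9.94 without.

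Of 5 genes of endothelin and related vasoactive peptides 2 rose, Edn2 and Kng1, and 1 fell, Ece2 (-0.41 ± 0.13). The Ece2 call was lost on leaving out any array but RepSox replicate 1 (0.0553 to 0.157). Of 11 imprinted genes 4 rose and 1 fell, with a median of 0.23. For the lists in this paragraph the background is 8.63% of all genes higher and 6.33% lower. Peg3, not detected in untreated cells, was at least 1.74-fold higher, Igf2 rose and Phlda2 fell as given above, and Snrpn (0.35 ± 0.10) lost its call without untreated replicate 2 (0.104) or 3 (0.0680) or RepSox replicate 1 (0.0632) or 3 (0.0848), and its other probe gave -0.15. Its list had 2 rises without untreated replicate 2, 2 without untreated replicate 3 and 2 without RepSox replicate 3. Rsad2 (viperin) was the 1 riser of 4 interferon-induced genes, with 6.69, 6.73 and 6.61 with RepSox against 5.59, 5.58 and 5.62 without (1.08 ± 0.12, adjusted p = 2.5e-06). Of 6 chemokine and acute-phase genes Ccl7 rose at least 1.39-fold and Cxcl1 fell by 0.39 (SE 0.10), a call lost without untreated replicate 3 (0.113).

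The haem oxygenase gene Hmox1 was the 1 member of 9 antioxidant genes to pass and read 7.58, 7.61 and 7.13 with RepSox, against 8.31, 8.47 and 8.43 without (-0.97 ± 0.15, adjusted p = 0.00012). Of 14 glycolytic enzyme genes Hk2 fell (-0.54 ± 0.12), and 12 of the 14 lay below 0 with a median of -0.18. Of 13 cholesterol synthesis genes Lss fell (-0.49 ± 0.13) and Hmgcs1 rose (0.34 ± 0.09). Lss lost its call without untreated replicate 1 (0.0903) or RepSox replicate 1 (0.0606), and Hmgcs1 without untreated replicate 1 (0.0653) or 2 (0.0558) or RepSox replicate 3 (0.0579). None of 9 hypoxia response genes passed, with a median of -0.05, and 1 was called lower without RepSox replicate 3. Over all genes, 8.63% were higher and 6.33% lower. At the threshold itself, Rai14 (0.32, adjusted p = 0.0499) and Itga11 (0.44, 0.0499) lay just inside, and Adprhl2 (-0.38, 0.0501) and Spryd4 (-0.31, 0.0503) just outside.

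The early response was then set against the responses at 24 and 48 h, which used other arrays of the same line. The genes called higher at 10 h had a median change of 0.53 at 10 h, 0.53 at 24 h and 0.10 at 48 h, and those called lower had medians of -0.49, -0.41 and -0.20. Selection on the 10 h values favours smaller values at the later times. Of the 800 genes called higher, 754 had the same sign at 24 h and 465 at 48 h. Of the 587 called lower, 548 and 389 did. The difference between the 24 h and the 10 h effect passed the test for 289 genes (3.12% of those tested), 185 with a higher and 104 with a lower value at 24 h, and 169 of the 289 were not called at 10 h. With median scaling in place of quantile normalization the split was 212 and 72. The difference between 48 h and 10 h passed for 2607 genes (28.1%), of which 1844 were not called at 10 h. For the 48 h arrays numbered 3, RepSox and untreated names are exchanged between the scanner table and the series matrix. Without both, 2024 genes passed, and the 48 h medians were 0.12 for the genes called higher at 10 h and -0.21 for those called lower.

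Among genes called at 10 h, 6 had lost or turned the most by 24 h. Mgarp, a mitochondrial protein gene, read 8.08, 8.17 and 8.10 with RepSox at 10 h, against 7.01, 6.84 and 7.04 without, a rise of 1.15 ± 0.16. At 24 h its change was -1.08. The RepSox means of Mgarp were 8.12, 7.35 and 7.83 at 10, 24 and 48 h, and the untreated means were 6.96, 8.42 and 10.08, so the untreated cells moved the most. Krt14 fell by 1.59 at 10 h and changed by -0.07 at 24 h. Its RepSox means were 7.13, 6.99 and 6.42 and its untreated means 8.72, 7.07 and 6.51, which came close to each other as the untreated cells dropped. Aspg (1.30 at 10 h, -0.02 at 24 h), Eml1 (0.85 and -0.35), Atp12a (-0.45 and 0.75) and Edn2 (2.25 and 1.11) made up the rest. The 10 h values of Edn2, Wnt5a and Rnase1 are fitted against untreated cells in which they were not detected, and are no bounds.

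Among the genes called at 10 h, the 6 that gained the most by 24 h were all higher with RepSox at 10 h. Msc, a transcription factor of muscle progenitors, read 5.93, 5.82 and 5.61 with RepSox at 10 h, against 5.38, 5.14 and 5.42 without (0.48 ± 0.15, adjusted p = 0.031), and its change was 3.19 at 24 h. The 10 h call of Msc was lost without untreated replicate 1 (0.0577) or 2 (0.147) or RepSox replicate 1 (0.113) or 2 (0.0800). The change of Igf2 was 4.34 at 24 h, that of Kng1 3.32, that of Il7r 2.92, that of Wnt5a 2.80 and that of the ribonuclease gene Rnase1 2.63. Nanog, undetected at 10 h, had a change of 0.87 at 24 h and 3.01 at 48 h (3.04 without both 48 h arrays numbered 3), and its differences from the 10 h effect passed the test (adjusted p = 0.0064 at 24 h and 1.2e-10 at 48 h). Skil remained lower, with -1.14, -1.01 and -0.97 at 10, 24 and 48 h (-0.79 at 48 h without both arrays numbered 3), and neither difference passed. Gadd45g held at 24 h (2.34) and was lower at 48 h (0.56, and 0.69 without both arrays numbered 3), while Tfap2c stayed high with 2.52 and 2.48 (2.45 without both).

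**Figure D5:**
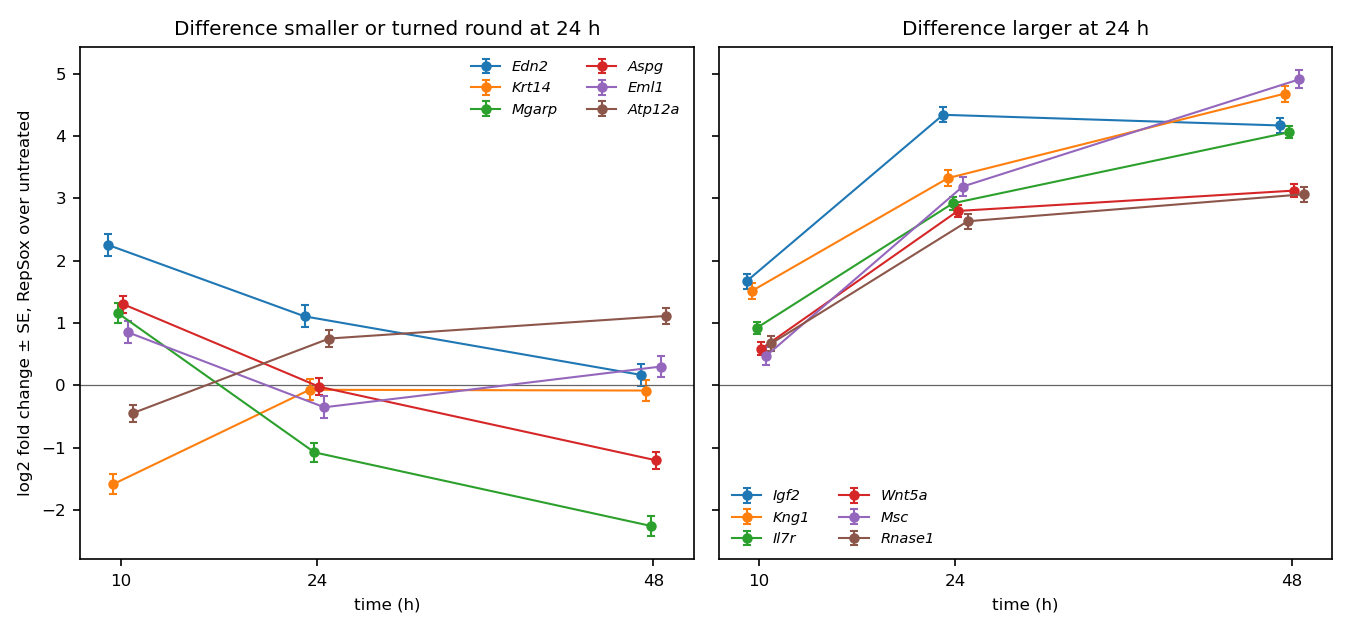
Log2 fold change of RepSox over untreated cells at 10, 24 and 48 h, with the SE as bars, for the 6 genes called at 10 h whose difference shrank or turned the most by 24 h (left) and the 6 whose difference grew the most (right), with points of a time set slightly apart. Mgarp goes to -1.08 at 24 h, and Igf2 reaches 4.34.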

How the data were processed

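Total RNA was measured on Illumina bead arrays as biotinylated cRNA. The authors deposited a scanner table of probe intensity on a linear scale, negative after background subtraction in places, with a detection p-value for each probe, and per the submitters' processing notes BeadStudio (version not given in the sources used here) was used. A second deposited table, the series matrix, holds processed intensity whose normalization and centring are not given. Its ranks matched the scanner columns, except that the 48 h arrays numbered 3 (treated and untreated) each matched the other's (Spearman's rho with their own column 0.931). The scanner names were used. Under them the untreated 48 h array numbered 3 correlated with its replicates at 0.992 to 0.993. The RepSox array did so at 0.994 to 0.995. Neither table used here gives slides or scan dates.

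The 18 OKMS6 arrays were background-corrected and quantile normalized with neqc in limma 3.58.1 (R 4.3.3), which took the background level out of the detection p-values and used an offset of 16. Of 25697 probes, 23978 had a gene symbol in GEO's platform annotation and 1719 were unlisted. A named probe entered the fit if its detection p lay under 0.05 on 3 or more of these 18 arrays (12786 probes), and each gene was read from its brightest probe by mean. Levels are log2 intensities, probes of different genes are not compared, and the number of arrays limits the precision. A mean for each of the 6 OKMS6 groups was fitted with lmFit and eBayes (12 residual and 7.67 prior degrees of freedom). Tests are two-sided with Benjamini-Hochberg adjustment over all genes, and a gene was called at an adjusted p under 0.05. A fold against cells with no detected value is a bound, set on each array against the lowest signal of a detected probe, or the probe's own value where that was higher.

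The members, the 40 gene lists (665 entries, 602 on the array) and the tests were chosen with earlier results of these data known. Genes named are the 12 largest called rises and falls with no overlap between arrays and detection on all 3 arrays of the higher group, without clone or provisional names, the called members of each list ranked 1 to 4 by adjusted p, a fixed set of pathway and reprogramming genes, the 6 that lost and the 6 that gained the most by 24 h, and 2 genes on each side of the threshold. Further list members were named after their values were seen. On simulated data of 9267 genes the 10 h comparison called 97% of log2 changes of 1, 52% of changes of 0.5 and 0.0882% of unchanged genes. Promoters came from RefSeq. The induced pluripotent stem cell arrays were made on another platform and were not used here.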

Additional observations from a re-analysis of the deposited data

Results flagged for a closer look

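The effect of RepSox at 10 h differed by a test of the difference from the effect at 24 h for 289 genes and from the effect at 48 h for 2607 genes (limma, adjusted p under 0.05). Without RepSox replicate 3 of 24 h the first count was 688.

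Of the genes called at 10 h, 6 had the largest loss by 24 h, given here as the 24 h minus the 10 h log2 change. The value was -2.23 ± 0.22 for Mgarp, -1.33 ± 0.19 for Aspg, -1.20 ± 0.25 for Eml1 and -1.14 ± 0.25 for Edn2 (SE), which had all been higher with RepSox at 10 h. Krt14 (1.51 ± 0.23) and Atp12a (1.20 ± 0.19) had been lower at 10 h, and Atp12a was higher at 24 h. The difference for Msc was 2.71 ± 0.21, for Igf2 2.67 ± 0.17, for Wnt5a 2.21 ± 0.14, for Il7r 2.00 ± 0.14, for Rnase1 1.96 ± 0.17 and for Kng1 1.81 ± 0.18, the 6 largest gains among genes called at 10 h. These 12 genes were picked for the size of this difference, so the sizes are a description.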

How the results depend on the processing

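Of the counts at 10 h (1387 genes), 24 h minus 10 h (289) and 48 h minus 10 h (2607), most stayed within 1.5 times under the alternatives. With the series matrix they were 455, 11 and 22. After leaving out both 48 h arrays numbered 3, a choice made after seeing the data, the series matrix gave 1308, 252 and 1900. With all 30 arrays in the fit they were 412, 72 and 944, and with 2 V6.5 embryonic stem cell arrays left out of those 1335, 296 and 2499. Array weights gave 2781, 2249 and 3645. For array weights the cause was not tested. The split of higher and lower calls was 57.7% higher in the reported values at 10 h and 69.0% with the series matrix, and for 24 h minus 10 h it was 64.0% and 74.6% with median scaling.

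Leaving out each array in turn gave 938 to 1279 genes at 10 h, 202 to 688 for 24 h and 2202 to 2603 for 48 h. The 688 came without RepSox replicate 3 of 24 h. Of 114 named genes, 52 kept their call or lack of it with the series matrix and 67 with all 30 arrays, and between 92 and 114 did under each other alternative. With the series matrix without both 48 h arrays numbered 3, 106 did. The only changes of sign were those of Ddit3, at -0.0039 with the series matrix without both 48 h arrays numbered 3 and -0.037 without untreated replicate 1, with 0.21 as the highest value on leaving out an array. Deviations of arrays with the same number correlated at -0.009, 0.024 and 0.016, so no shared effect of the number was seen. These values cannot tell whether arrays of the same number were cultured or processed together. In a fit with a replicate block the numbers of genes were 1457, 290 and 2684, and Itga11 lost its call.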

Other observations

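A list of FoxO target genes was added after their values were seen, so its counts are a description with no test. Of 17 measured members 9 were called higher with RepSox at 10 h and 0 lower, with a median log2 change of 0.45, against 8.63% higher, 6.33% lower and a median of 0.0033 over all genes. They include the insulin receptor adaptor gene Irs2 (1.20), the cyclin-like gene Ccng2 (1.12), the transcription factor gene Hbp1 (0.95), the apoptosis gene Bcl2l11 (0.79) and the PI3 kinase inhibitor gene Pik3ip1 (0.57), whose call was lost without untreated replicate 3 (0.05529) or RepSox replicate 2 (0.06066). Without untreated replicate 3 the list had 6 called members, and with all 30 arrays in the fit 5. Klf2, Il7r and Sesn1 are also on other lists given above. The median of the list was 0.23 at 24 h and -0.07 at 48 h.

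Integrin genes were also gathered after their values were seen, and over all genes 8.63% were higher and 6.33% lower. Of 12 measured, Itga7 (-1.76) and the collagen receptor subunit Itga1 (-1.23) were called lower, and Itgb7 (0.58) and Itga11 (0.44) higher. The rises numbered 1 without untreated replicate 1 or 3 or RepSox replicate 2 or 3.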
